A study of Mus musculus with 6 samples.

Results

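The genes described here are 9 enzymes that break down amino acids in the liver: Tdo2, Hpd, Hgd, Fah, Sds, Hal, Oat, Prodh and Gpt. Members were all probe sets that the platform annotation assigns to exactly 1 of these symbols. Of the 9 genes, 8 had such a probe set, with 12 probe sets in all, 9 of them on both array designs and 3 on the larger design alone. Sds is not analysed here. The 8 enzymes stand among 12393 genes with a shared probe set of 1 symbol, of which 8846 were tested, all 8 included.

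Livers came from C57BL/6J mice, an inbred strain prone to diet-induced weight gain, placed by chance on a high-fat diet (HFC in the submitters' design text) or a control diet. There was 1 array of the high-fat diet at each of weeks 2, 4 and 10, and 1 array of the control diet at each of the same weeks, 6 arrays in all. No genetic change is named, RNA was isolated mouse by mouse, and pooling of mice on an array, like their sex, age and hour of sampling, is not stated. Week 4 was run on a larger array design, with its own table of values, so diets were compared within a week, and a level was set across weeks only between weeks 10 and 2.

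Amino acids that are not needed for protein synthesis are degraded mostly in hepatocytes, where their nitrogen passes to urea and their carbon to glucose, ketone bodies or the citric acid cycle. Many of these enzymes are induced by glucocorticoids, glucagon or dietary protein and are held down by insulin. Tdo2 opens the tryptophan pathway, Hpd, Hgd and Fah are consecutive or nearly consecutive steps of tyrosine degradation, Hal opens histidine degradation, Oat and Prodh lead ornithine and proline towards glutamate, and Gpt moves the amino group of alanine to 2-oxoglutarate, forming pyruvate. In the liver lobule Hal is known from periportal hepatocytes and Oat from those around the central vein.

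To show what these genes look like at their starts, the promoter windows of 3 of them follow. They are that of Tdo2, whose high-fat signal was the lower one in every week, and those of Oat and Prodh, which had the greatest changes of the diet difference between weeks. Sequences are from RefSeq, build GRCm38.p6, 5′ to 3′ on the gene's strand, from 250 bases before the transcription start to 50 bases after it, and 7 of the 9 genes have an entry (all but Sds and Gpt). Capitals mark matches on either strand to any of 6 motifs. The first was TATAAA, the core of a TATA box. The second was CCAAT, bound by the factor NF-Y among others. The third was TGACG, part of a cAMP response element. The fourth was TGTTCT, part of a glucocorticoid response element. The fifth was GTTAAT, part of an HNF1 site, and the sixth, CACGTG, the E-box of clock factors. No 2 of the matches overlap.
Tdo2, chr3:81975679-81975978, minus strand: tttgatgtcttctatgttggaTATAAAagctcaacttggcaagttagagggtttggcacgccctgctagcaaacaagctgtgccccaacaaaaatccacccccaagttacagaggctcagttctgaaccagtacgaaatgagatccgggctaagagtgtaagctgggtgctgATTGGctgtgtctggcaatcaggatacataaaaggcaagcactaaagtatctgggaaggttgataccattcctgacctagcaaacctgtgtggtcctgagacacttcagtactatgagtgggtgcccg
Oat, chr7:132576349-132576648, minus strand: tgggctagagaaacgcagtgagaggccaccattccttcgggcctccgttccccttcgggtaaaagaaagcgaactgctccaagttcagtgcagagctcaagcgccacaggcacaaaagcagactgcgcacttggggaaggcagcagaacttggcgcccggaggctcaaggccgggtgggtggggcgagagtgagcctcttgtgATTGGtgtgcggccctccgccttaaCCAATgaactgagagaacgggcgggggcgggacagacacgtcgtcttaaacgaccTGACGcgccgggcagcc
Prodh, chr16:18089141-18089440, minus strand: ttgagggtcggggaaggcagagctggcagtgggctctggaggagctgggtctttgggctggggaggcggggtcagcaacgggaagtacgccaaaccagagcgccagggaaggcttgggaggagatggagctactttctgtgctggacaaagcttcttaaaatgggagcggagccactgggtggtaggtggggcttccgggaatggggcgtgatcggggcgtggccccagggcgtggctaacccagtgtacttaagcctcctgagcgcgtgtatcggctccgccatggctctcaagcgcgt

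The TATA core was found in 3 of the 7 windows, those of Tdo2, Hal and Hgd, and in 13.6% of all 32851 promoter windows of the same length. CCAAT was found in 4 of 7 (Tdo2, Hal, Hgd and Oat) and in 37.4% of all, and TGACG in that of Oat alone and in 20.8% of all. The glucocorticoid, HNF1 and E-box motifs were in none of the 7, and in 19.0%, 7.10% and 7.15% of all windows. The share of G and C was 61.7% in the window of Oat and 63.0% in that of Prodh, against 47.7% in that of Tdo2. These are matches of letters in a short window and say nothing about binding.

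Relative to the control array of the same week, most of the enzymes had higher high-fat signals at week 2 and lower ones at weeks 4 and 10. At week 2, 6 of 8 were higher, where 45.7% of all genes tested were, with log2 differences (high-fat minus control) from -0.37 to 0.56 and a median of 0.36. At week 4 all 8 were lower, where 46.2% of genes were, with differences from -1.05 to -0.31 and a median of -0.69. At week 10, 7 of 8 were lower, where 47.2% of genes were, with differences from -1.24 to 0.23 and a median of -0.44. The medians over all genes tested were -0.03, 0.00 and 0.02 at weeks 2, 4 and 10. Genes set to the floor on both arrays of a week have a difference of 0 there and count as neither higher nor lower. At week 4, 4083 of the 8846 genes were lower and 3029 higher, so the share of 46.2% and the median of 0.00 include such genes. The 8 members of each week share 2 arrays, so these counts describe those arrays and have no replicate check.

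A difference of 1.5-fold or more was seen for none of the 8 at week 2, where 6.83% of genes were that much higher and 8.79% that much lower. At week 4, 5 of 8 were at least 1.5-fold lower, where 6.66% of genes were, and none that much higher, where 3.87% were. At week 10 the count was 3 lower, where 12.7% of genes were, and 0 higher, where 13.5% were. The 5 of week 4 were Prodh, Hpd, Oat, Tdo2 and Gpt, and the 3 of week 10 were Oat, Tdo2 and Prodh.

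**Figure D1:**
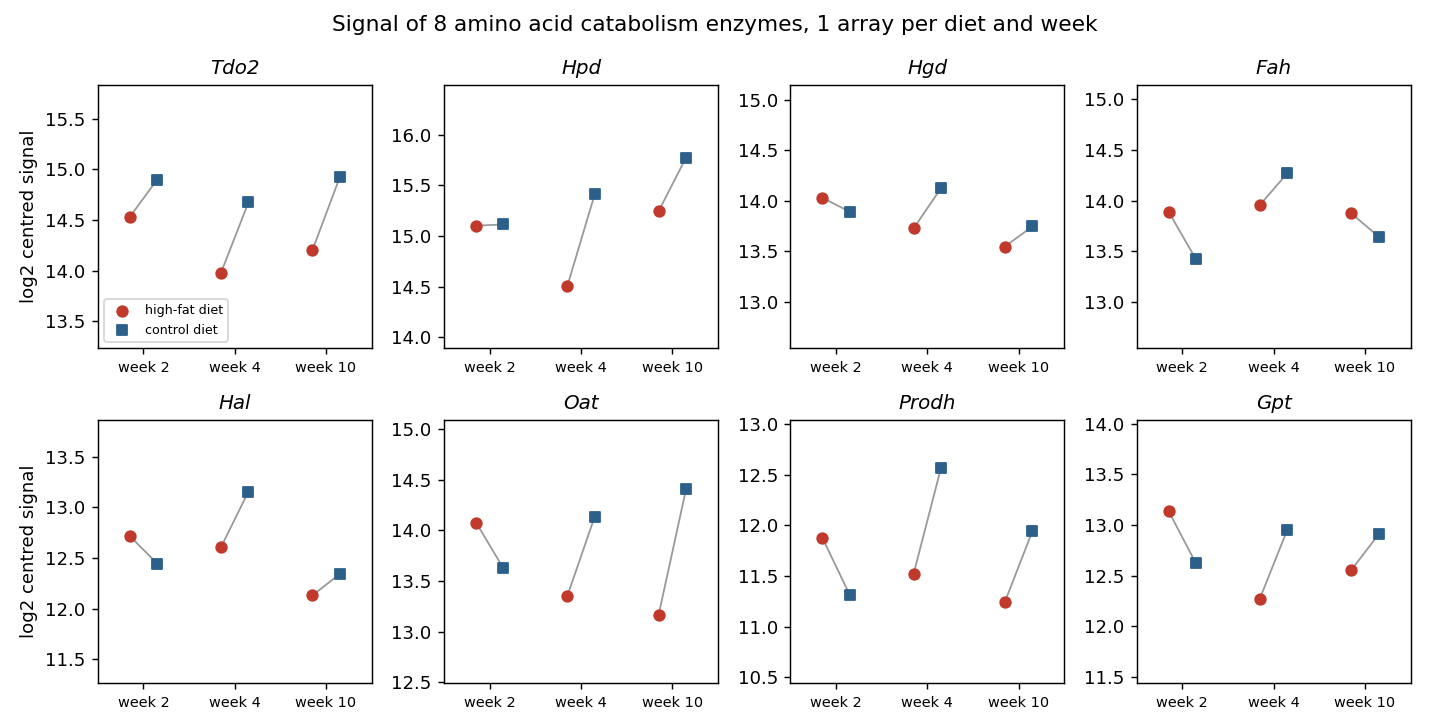
Log2 centred signal (vertical axis, of equal length in each panel) of the 8 enzymes on the high-fat (circles) and control (squares) array of weeks 2, 4 and 10, with a line joining the 2 arrays of a week. Tdo2 lies lower for the high-fat diet in all 3 weeks, and Oat, Prodh and Gpt lie higher in week 2 and lower in weeks 4 and 10.

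The values in the following are signal intensities after each array was centred, in the arrays' arbitrary units. They compare arrays for 1 probe set and do not rank genes against each other. The probe sets of the 8 enzymes were bright, with 90.4% to 99.9% of the genes tested dimmer, and 11 of the 12 lay above the floor of 155.3 on each array that holds them.

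Tryptophan 2,3-dioxygenase, encoded by Tdo2, commits tryptophan to the kynurenine pathway. Its brightest probe set gave 23677, 16170 and 18841 on the high-fat arrays of weeks 2, 4 and 10, against 30581, 26167 and 31037 on the control arrays. High-fat signals were the lower ones in each week. The log2 differences were -0.37, -0.69 and -0.72, and their mean of -0.59 (standard error 0.21, 95% interval -1.07 to -0.12, 3 arrays per diet) is a 1.51-fold lower signal. By limma with week as a block this had an unadjusted p of 0.0189 and did not pass after adjustment over 8846 genes (adjusted p = 0.995). A lower mean difference than that of Tdo2 was seen for 1.77% of all genes.

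The other Tdo2 probe sets gave the same sign with smaller differences. The second gave 11357, 6739 and 5057 on the high-fat arrays, against 12658, 9262 and 6888 on the control arrays, or log2 differences of -0.16, -0.46 and -0.45. The third, on the larger design alone, gave 3639 on the high-fat and 4234 on the control array of week 4, a difference of -0.22.

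Of the tyrosine pathway, Hpd encodes 4-hydroxyphenylpyruvate dioxygenase, which forms homogentisate. It gave 35165, 23270 and 38832 on the high-fat arrays, against 35462, 43604 and 56033 on the control arrays. The diets were nearly equal at week 2 (log2 difference -0.01), and the high-fat signal was the lower one at weeks 4 (-0.91) and 10 (-0.53). The mean difference was -0.48 (standard error 0.24, 95% interval -1.01 to 0.04, limma adjusted p = 0.995).

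Hgd encodes homogentisate dioxygenase, which opens the ring. It had 16715, 13572 and 11972 on the high-fat arrays and 15209, 17859 and 13741 on the control arrays, with differences of 0.14, -0.40 and -0.20. Fah, whose product fumarylacetoacetate hydrolase ends the pathway, had 15188, 15917 and 15026 on the high-fat arrays and 10968, 19764 and 12819 on the control arrays. The differences of Fah were 0.47, -0.31 and 0.23. Of the 8, Fah alone had the higher high-fat signal at week 10. The mean differences of -0.15 for Hgd (95% interval -0.64 to 0.33) and 0.13 for Fah (95% interval -0.39 to 0.64) were within the spread between weeks, and the sign of each turned under some alternatives of scaling or weeks. A second Hgd probe set, on the larger design alone, gave 320.4 on the high-fat and 637.2 on the control array of week 4, a difference of -0.99.

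Hal encodes histidine ammonia-lyase, which turns histidine into urocanate. Its signals were 6729, 6245 and 4482 on the high-fat arrays, against 5578, 9133 and 5189 on the control arrays. The high-fat signal was above the control at week 2 and below it later, with differences of 0.27, -0.55 and -0.21 and a mean of -0.16 (95% interval -0.68 to 0.35). The mean was 0.030 without week 4.

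Ornithine aminotransferase, encoded by Oat, is a mitochondrial enzyme that yields glutamate semialdehyde. It had 17298, 10463 and 9190 on the high-fat arrays of weeks 2, 4 and 10, against 12637, 18020 and 21712 on the control arrays. The high-fat array was the higher one at week 2 and the lower one at both later weeks. At week 10 the signal was 2.36-fold lower on the high-fat array (log2 difference -1.24), the lowest value among the 8 enzymes in any week, and 2.03% of all genes had a lower one. Over the 3 weeks the mean was -0.52 (standard error 0.31, 95% interval -1.20 to 0.16, limma adjusted p = 0.995), and the SD of the 3 differences, 0.88, exceeded the mean. The mean was -1.01 without week 2 and -0.17 without week 10.

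Prodh encodes proline dehydrogenase, the first step of proline oxidation. It gave 3764, 2940 and 2424 on the high-fat arrays and 2544, 6071 and 3930 on the control arrays. It had the same turn as Oat, with differences of 0.56, -1.05 and -0.70, and at week 4 it was 2.06-fold lower on the high-fat array, where 0.723% of all genes had a lower value. The mean was -0.39 (standard error 0.30, 95% interval -1.06 to 0.28), and it was -0.87 without week 2 and -0.066 without week 4.

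Gpt encodes the cytosolic alanine aminotransferase. Its probe set, of a kind (suffix _s_at) that can match more than 1 transcript, gave 9013, 4954 and 6014 on the high-fat arrays and 6298, 7930 and 7687 on the control arrays. High-fat signals were 1.43-fold above the control at week 2 and below it at weeks 4 and 10, with differences of 0.52, -0.68 and -0.35. The mean was -0.17 (95% interval -0.75 to 0.41), and 0.081 without week 4. A dim second probe set, on the larger design alone, went the other way at week 4, with 275.2 on the high-fat array and a value below the floor on the control array, so the difference was at least 0.83.

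Over the 3 weeks none of the 8 passed the limma test at an adjusted p of 0.05. An unadjusted limma p under 0.05 was seen for 1 of 8, Tdo2, and for 361 of all 8846 genes. Of all genes tested 0.0113% passed, which is 1 gene, the keratin gene Krt23 (adjusted p = 0.0247). No alternative setting made any of the 8 pass, and the smallest adjusted p among them was 0.530, for Oat. The 8 members had a median mean difference of -0.28, and all genes one of -0.03. Lower at all 3 weeks were 2 of 8, Tdo2 and Hpd, where 11.3% of genes were, and higher at week 2 but lower at weeks 4 and 10 were 5 of 8 (Oat, Prodh, Gpt, Hal and Hgd), where 10.2% of genes were.

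**Figure D2:**
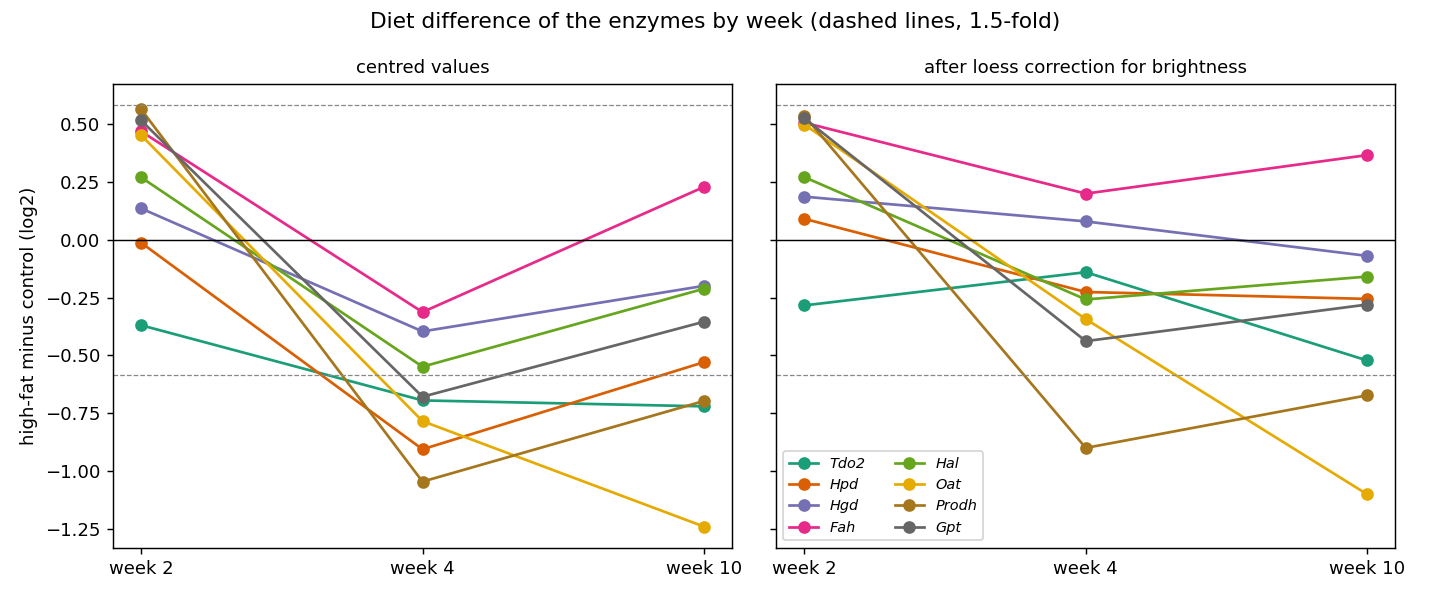
High-fat minus control log2 difference (vertical axis) of each enzyme at weeks 2, 4 and 10, from centred values (left) and after a loess correction for brightness (right). Dashed lines mark 1.5-fold. On the left all 8 lie below 0 at week 4, and on the right 6 of 8 do, with Prodh (-0.90) alone beyond 1.5-fold.

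The differences of week 4 went with brightness across the whole arrays. In the 2212 brightest of the genes tested the median difference at week 4 was -0.14. Of these, 66.0% had the lower signal on the high-fat diet and 11.3% were at least 1.5-fold lower. After a loess correction of each week's differences for brightness, 1 of 8 enzymes, Prodh (-0.90), was at least 1.5-fold lower at week 4. The others then had -0.44 (Gpt), -0.34 (Oat), -0.26 (Hal), -0.23 (Hpd) and -0.14 (Tdo2), and Hgd and Fah were higher, at 0.08 and 0.20. The median of the 8 at week 4 was -0.24 after the correction, where it was 0.00 over all genes tested and 0.01 over the 2212 brightest. The share of all genes at least 1.5-fold lower after the correction was not counted.

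Weeks 2 and 10 moved less under this correction. At week 10 Oat had -1.10, Prodh -0.67 and Tdo2 -0.52 after it, and the median of the 8 was -0.27. At week 2 the median was 0.39. That direction at week 2 rests on centring the arrays, since the control array of week 2 was deposited with a higher scaling target. As deposited all 8 had lower high-fat signals, Tdo2 and Hpd by at least 1.5-fold. These counts include an offset shared by all genes of the arrays. Centring removed a log2 shift of -0.43 from the high-fat and 0.24 from the control array of week 2. The share of all genes lower as deposited was not counted.

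**Figure D3:**
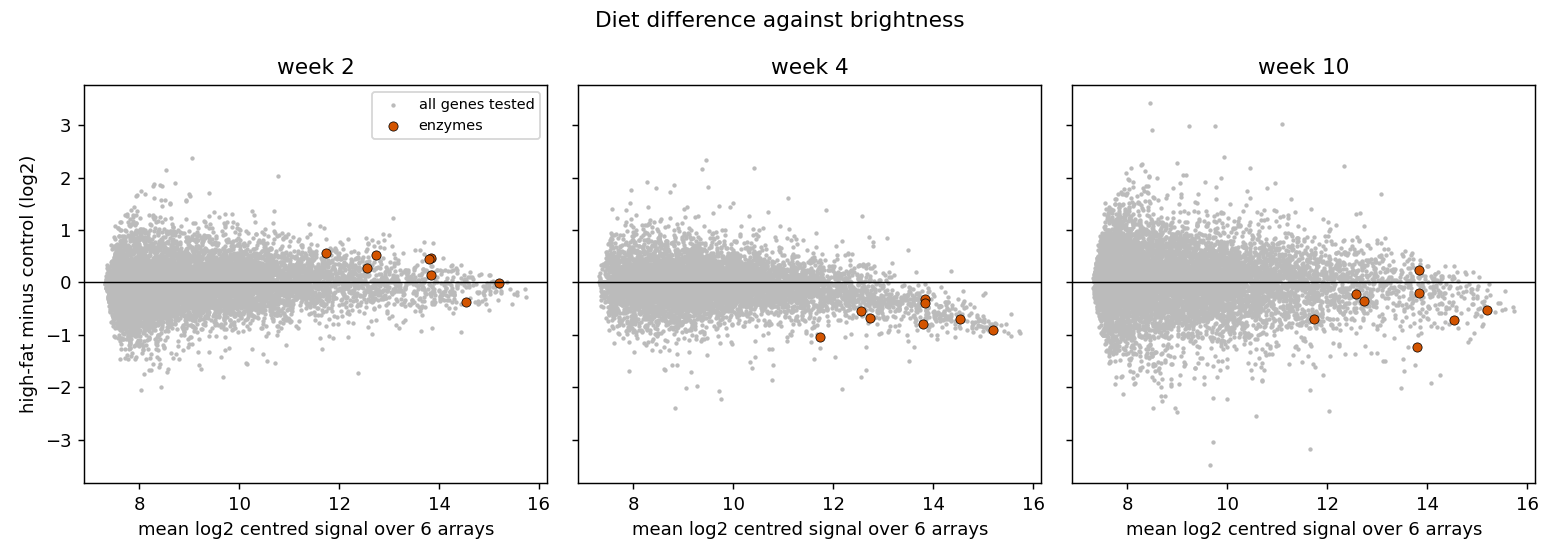
High-fat minus control log2 difference (vertical axis) against mean log2 centred signal over the 6 arrays (horizontal axis) at weeks 2, 4 and 10, for all 8846 genes tested (grey) and the 8 enzymes (orange). At week 4 the brightest genes lie below 0 together, and the enzyme farthest below the other genes of like brightness is Prodh, at -1.05.

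General hepatocyte markers, led by abundant plasma proteins, were measured beside the enzymes to check the tissue and its makeup. All 8 measured markers of 10 listed (among them albumin) were tested and none lay at the floor on all arrays, as the label of liver calls for. Their summed signals on the high-fat arrays of weeks 2, 4 and 10 were 276010, 196105 and 380784, against 306583, 353717 and 499542 on the control arrays. At least 1.5-fold lower were 8 of 8 at week 4 and 1 of 8 at week 10, where 6.66% and 12.7% of all genes were. The median log2 differences of these markers were -0.15, -0.83 and -0.45, and after the loess correction -0.04, -0.15 and -0.16. Fewer hepatocytes, less RNA per hepatocyte and the shift of bright probe sets between arrays cannot be told apart here. The part of each was not tested.

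Markers of other cells also differed between the arrays. The summed signals of 12 macrophage and Kupffer cell markers were 20505, 33327 and 26127 on the high-fat arrays, against 22683, 34173 and 15403 on the control arrays. At week 10, 12 of 12 had the higher high-fat signal, where 4564 of all 8846 genes had, with a median difference of 0.73. Of 7 lymphocyte and neutrophil markers, 3 were at least 1.5-fold higher in week 4 and 1 in week 10, where 3.87% and 13.5% of all genes were. Over weeks 2, 4 and 10 their median differences were 0.07, 0.48 and 0.43. Those of 8 endothelial markers were -0.40, -0.04 and 0.43, with 7 of 8 lower in week 2, where 53.7% of all genes were. Stellate and matrix markers (11) had -0.11, 0.19 and 0.23, and pancreatic acinar markers (5) -0.18, 0.00 and 0.71. Cholangiocyte markers had no gene tested, erythroid and adipocyte markers 2 each (-0.15, 0.45 and 0.07, and -0.33, 0.32 and -0.20) and kidney markers 3 (-0.26, 0.00 and 0.24). The part of these in the results for the enzymes was not tested.

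Signs of RNA quality and labelling varied too. The 3′/5′ signal ratios of pyruvate carboxylase were 9.64, 7.78 and 2.39 on the high-fat arrays of weeks 2, 4 and 10, against 3.82, 4.26 and 4.01 on the control arrays. Those of the transferrin receptor were 30.4, 1.62 and 1.48 on the high-fat arrays, against 9.17, 1.95 and 0.796 on the control arrays. Those of beta-actin were 1.61, 2.35 and 1.17 on the high-fat arrays, against 1.20, 2.15 and 1.73 on the control arrays. All 4 ratios, Gapdh included (1.01 on the high-fat and 0.783 on the control array), were higher on the high-fat array in week 2, and in the later weeks they differed in direction. The spiked-in bioD control, as deposited, gave 5891 on the high-fat and 21253 on the control array of week 10, and 3822 to 13606 on the arrays of the other weeks. Their part in the results was not tested.

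Weeks 10 and 2 were run on the same array design and were compared within each diet, again with 1 array each and no test. On the high-fat diet Oat was 1.88-fold lower at week 10 than at week 2 (log2 difference -0.91), and on the control diet 1.72-fold higher (0.78). Prodh had -0.63 on the high-fat diet and 0.63 on the control diet, and Gpt -0.58 on the high-fat and 0.29 on the control diet. The control values rest on the centring of the week 2 arrays. As deposited, Oat had -0.92 on the high-fat and 0.085 on the control diet, Prodh -0.64 on the high-fat and -0.068 on the control diet, and Gpt -0.59 on the high-fat and -0.41 on the control diet. In the centred values, Hal had -0.59 on the high-fat and -0.10 on the control diet, and Hgd -0.48 on the high-fat and -0.15 on the control diet. Tdo2 had -0.33 on the high-fat and 0.02 on the control diet, and its second probe set -1.17 on the high-fat and -0.88 on the control diet. Hpd had 0.14 on the high-fat and 0.66 on the control diet, and Fah -0.02 on the high-fat and 0.22 on the control diet. As deposited, Hal, Hgd, Tdo2, Hpd and Fah had -0.80, -0.84, -0.67, -0.036 and -0.47 on the control diet. On the high-fat diet they had -0.59, -0.49, -0.34, 0.14 and -0.02 as deposited. These differences use the same arrays as the diet differences of weeks 2 and 10.

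The other enzymes of amino acid breakdown were then described, from 9 pathway lists that hold 78 genes beside the members, of which 65 were tested. None of the 65 passed the limma test (smallest adjusted p = 0.995). An unadjusted limma p under 0.05 was seen for 5 of 65 (Tat, Afmid, Cth, Ethe1 and Uroc1), and for 361 of all 8846 genes. Their median differences were 0.04, -0.36 and 0.10 at weeks 2, 4 and 10. At least 1.5-fold lower were 4 of 65 at week 2, 16 at week 4 and 9 at week 10, and that much higher 5, 0 and 3. As shares these are 6.15%, 24.6% and 13.8% lower, where 8.79%, 6.66% and 12.7% of all genes were, and 7.69%, 0% and 4.62% higher, where 6.83%, 3.87% and 13.5% were. The 5 of week 2 were Prodh2, Agxt, Gpt2, Ftcd and Mmut, the 4 lower ones Afmid, Ethe1, Mccc2 and Tat, and the 3 of week 10 Ido2, Aldh4a1 and Pcca. Agxt, Mmut, Ido2 and Aldh4a1 were named after their values were seen. At week 4, 55 of 65 (84.6%) were lower, where 46.2% of all genes and 66.0% of the 2212 brightest were. The median at week 4 after the loess correction was -0.17.

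**Figure D4:**
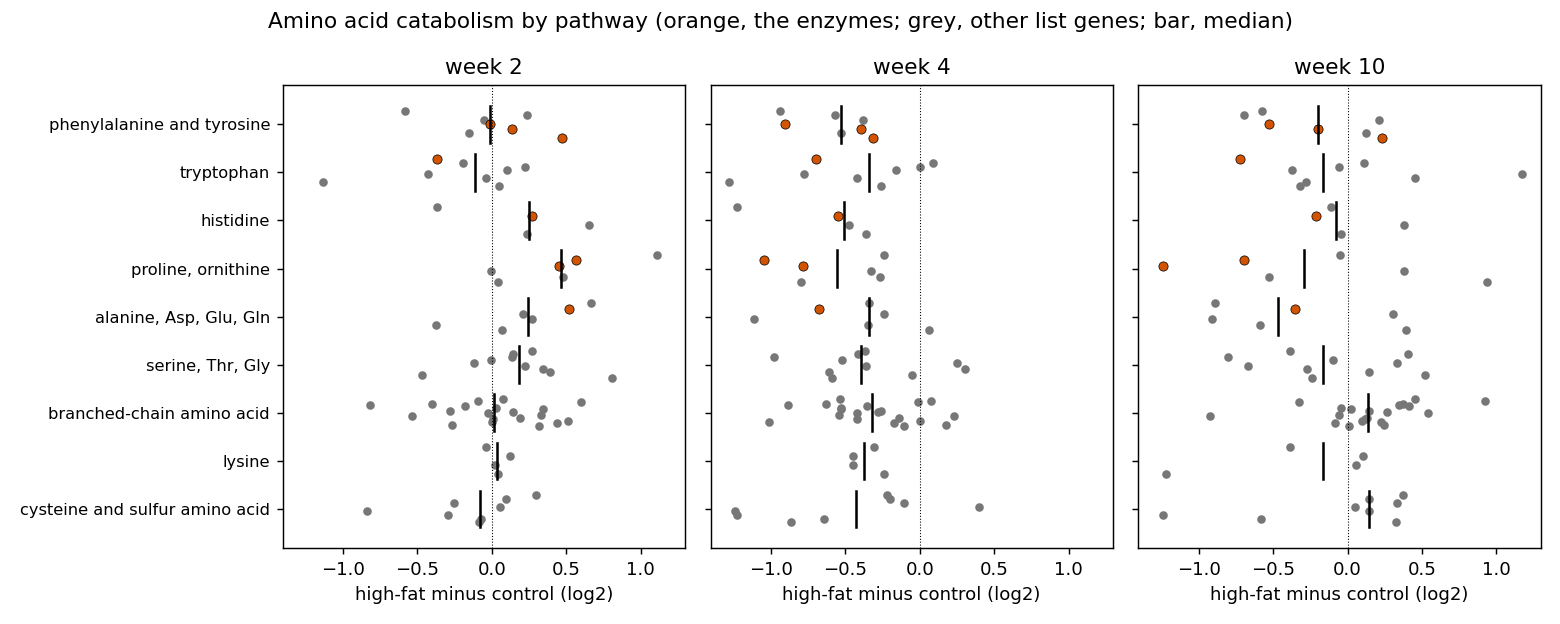
High-fat minus control log2 difference (horizontal axis) of the tested genes of 9 amino acid catabolism pathways (rows) at weeks 2, 4 and 10. Orange points are the 8 enzymes, grey points other list genes and bars the medians of a pathway, which lie below 0 in all 9 pathways at week 4.

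In tyrosine degradation Tat, the glucocorticoid-induced aminotransferase that starts the pathway, had 15258, 13225 and 19006 on the high-fat arrays, against 22893, 25335 and 28332 on the control arrays. High-fat signals were the lower ones in each week, as for Tdo2, with differences of -0.59, -0.94 and -0.58 (mean -0.70, unadjusted p = 0.00825, limma adjusted p = 0.995). Qdpr, which recycles the cofactor of phenylalanine hydroxylation, had -0.34 on average, but its probe sets disagreed at week 2, with 0.23 and -0.12, and at week 10, with -0.70 and 0.18. Of the 4 tested genes of this list beside the members, 4 were lower at week 4 and 2 at week 10, where 46.2% and 47.2% of all genes were.

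In the tryptophan list, Afmid, the formamidase that acts right after Tdo2, had 176.0, 267.7 and 298.5 on the high-fat arrays and 386.1, 650.4 and 362.1 on the control arrays. The differences were -1.13, -1.28 and -0.28 (mean -0.90, limma unadjusted p = 0.00478). This probe set is dim, and its high-fat signal of week 2 lay near the floor of 155.3. Weeks 2 and 10 rest on it alone. At week 4, 2 brighter probe sets (1164 and 2360 on the high-fat array) gave -1.50 and -0.85. Aadat, an aminotransferase of kynurenine, had a mean of -0.18, and the 7 tested genes beside Tdo2 had a median of -0.01.

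The aspartate aminotransferase gene Got1 had the turn seen for Gpt, with 0.27, -1.11 and -0.91. Gpt2, the mitochondrial partner of Gpt, had 0.66, -0.34 and -0.89 on its brightest probe set, and its other 2 shared probe sets had the same 3 signs. Glud1, glutamate dehydrogenase, was lower at each week, with -0.38, -0.35 and -0.59. In the proline list, Prodh2, which oxidizes hydroxyproline, was higher at week 2 (1.11) and near 0 at week 10 (-0.05). The 4 genes beside Oat and Prodh had a median of 0.16 at week 10, against -1.24 for Oat and -0.70 for Prodh. At week 10, 2 of these 4 were lower and 2 higher, where 47.2% of all genes were lower. Grhpr, 1 of the 4, had the same turn as Oat and Prodh, with 0.48, -0.27 and -0.52.

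In histidine breakdown Uroc1, the urocanase that follows Hal, had -0.37, -1.23 and -0.11 on its brightest probe set and -1.07, -0.55 and 1.99 on another, so its probe sets disagreed at week 10. Ftcd, which ends the pathway, had 0.65, -0.47 and 0.38. In the serine, threonine and glycine list, Sardh, sarcosine dehydrogenase, had 0.14, -0.98 and -0.80, with like values on its second probe set, and Gldc of the glycine cleavage system 0.23, -0.36 and -0.67.

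The cysteine list held Cth, cystathionine gamma-lyase, at -0.29, -1.22 and -1.24 (mean -0.92, unadjusted p = 0.00422, adjusted p = 0.995), and Ethe1, a persulfide dioxygenase, at -0.84, -1.24 and 0.15. Of lysine breakdown, Aass, its first enzyme, had 0.04, -0.24 and -1.22. The 20 tested genes of branched-chain amino acid breakdown had medians of 0.02, -0.32 and 0.14. Their greatest mean differences were those of Mccc2 (-0.45), Bckdk (-0.41), the kinase that inhibits the branched-chain dehydrogenase, and Pcca (0.30). Mccc2 had -0.88 at week 4 on the probe set used, and brighter ones on the larger design alone had -0.25 and -0.21.

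Lists around these pathways were also read. Among 17 tested hepatic factors and glucocorticoid or clock targets, medians were 0.10, 0.11 and -0.24 at weeks 2, 4 and 10. Sgk1, a kinase induced by glucocorticoids, was lower at each week, with a mean of -0.96 (limma unadjusted p = 0.00176, adjusted p = 0.995). The glucocorticoid targets Fkbp5 (0.20, 0.50 and -0.12) and Tsc22d3 (0.03, -0.30 and -0.09) were not lower at each week. Klf15 of the same list was lower at weeks 2 and 4 and higher at week 10 (-0.56, -0.52 and 0.47). Per1, a clock repressor, had 0.02 and 0.53 at weeks 2 and 4. It was below the floor on the high-fat array of week 10 (a log2 difference of -1.94 against the floor, a bound). Cebpa had 0.64, 0.14 and 0.58. Of 7 tested amino acid transporters, 7 were lower at week 4, where 46.2% of all genes and 66.0% of the 2212 brightest were. At week 10, 5 were lower, where 47.2% of all genes were. The transporters had a median of -0.43 at week 4, and of -0.19 after the loess correction. Mean differences were -0.52 for the glutamate carrier Slc1a2 and -0.43 for Slc38a2. A brighter Slc1a2 probe set, on the larger design alone, had 0.07 at week 4, against -0.82 on the one used. Periportal genes beside the members had medians of -0.28, -0.45 and -0.44 (8 genes), with Arg1 at a mean of -0.76 and Pck1 at -0.66, and pericentral ones -0.15, -0.39 and -0.55 (11 genes), with Cyp2e1 at -0.48. The medians of both zones were thus below 0 at each week, and none of these genes passed the test. After the loess correction the medians at week 4 were -0.15 (periportal) and -0.12 (pericentral). At week 2, 3 of the 8 periportal and 4 of the 11 pericentral genes were higher on the high-fat array, where 45.7% of all genes were.

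The genes whose 3 weekly differences were nearest to those of an enzyme were sought among 6050 other genes above the floor on all 6 arrays, by Euclidean distance on the log2 scale. For Tdo2 they were Cables2 (distance 0.079), Fpgs (0.13) and Slc22a26 (0.13). For Hpd they were Cyp2e1 (0.039), Gpx1 (0.067) and Cps1 (0.080), which had -0.87, -0.92 and -0.84 at week 4. For Oat no gene came as near, and the closest were Nr2c2ap (0.32), Rnf126 (0.37) and Alyref (0.38). These distances rest on 3 values per gene.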

How the data were processed

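Total RNA was taken from snap-frozen liver with Trizol and a column and labelled with biotin, per the labels' protocols. The authors deposited linear signal intensity per probe set. The sources used here name no software for this step. Deposited intensities were put on the log2 scale, 64 control probe sets were left out of 22690, and arrays were aligned by their medians over the 9922 probe sets that exceed the floor on every array. The floor was the 40th percentile of all values (log2 signal 7.28). Lower values were set to the floor. The brightest probe set with 1 symbol stood for a gene, and 8846 genes that exceed the floor on 3 or more arrays were fitted in limma 3.58.1 (R 4.3.3) with diet and week as terms and Benjamini-Hochberg adjustment at 0.05. With 1 array per diet and week, this measures the spread between weeks, and the number of arrays limits the precision. Loess (span 0.4) was fitted to the probe sets above the floor on both arrays of a week. Single weeks have no test, and 1.5-fold was the count threshold. The fit was tested on simulated data.

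Members and lists were chosen with earlier results of these data known. Genes named beside the members are up to 3 per list by the size of the mean difference, and the 3 nearest in pattern to each of the 3 enzymes with the largest such size. Others were chosen after their values were seen. Alternatives were other scalings, floors, filters, probe set choices, no week block, leaving out each week, and eBayes with trend and robust. Figures were drawn with matplotlib 3.10.9.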

Additional observations from a re-analysis of the deposited data

Results flagged for a closer look

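Some enzymes had diet differences (log2, high-fat minus control) of opposite sign at 2 weeks. Each week has 1 array per diet, so the change of the difference between weeks was not tested. The difference of week 4 minus that of week 2 was -1.61 for Prodh, -1.24 for Oat, -1.20 for Gpt, -0.82 for Hal, -0.78 for Fah and -0.53 for Hgd. These span both array designs and include the lower high-fat signals of bright genes at week 4. The difference of week 10 minus that of week 2, within 1 array design, was -1.69 for Oat, -1.26 for Prodh, -0.87 for Gpt, -0.48 for Hal and -0.33 for Hgd. These signs rest on the centring of the week 2 arrays, since as deposited all 8 enzymes were lower on the high-fat diet in week 2. The deposited values include an offset between the whole arrays of week 2. The week 10 minus week 2 value as deposited was -1.004 for Oat, -0.57 for Prodh and -0.18 for Gpt, and it turned for Hal (0.21) and Hgd (0.35). For Fah the difference of week 10 minus that of week 4 was 0.54.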

How the results depend on the processing

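No enzyme passed the test in any setting. Tdo2, Hpd, Oat and Prodh kept a mean below 0 in all 14 alternatives, from -0.78 to -0.28, -0.72 to -0.048, -1.01 to -0.17 and -0.87 to -0.066. Some alternatives cannot change these means and are no check of their sign. They are no filter, probe sets in place of genes, no week block, and eBayes with trend and robust. The mean turned for Fah in the values as deposited (-0.060) and without week 2 (-0.042; 0.349 without week 4), for Hgd under quantile normalization (0.078) and after loess (0.066), and without week 4 for Hal (0.030; -0.380 without week 2) and Gpt (0.081; -0.516 without week 2). Gpt has no value without shared probe sets. The median of the 8 was -0.61 to -0.049 over all settings. With values as deposited, 0 of 8 were higher and 8 lower at week 2, 2 of them (Tdo2 and Hpd) 1.5-fold. These counts include the offset between the whole arrays of week 2 that centring removes. Under quantile normalization and after loess 1 of 8 (Tdo2) was lower at week 2, and at week 4 there were 2 higher (Hgd and Fah) and 1 at least 1.5-fold lower. At the 20th percentile floor 1 (Tdo2) was lower and 1 (Prodh) 1.5-fold higher at week 2. The matching shares of all genes were not counted under these alternatives. Of all genes, 7 passed as deposited, 2 with probe sets fitted in place of genes, 6 to 7 without 1 week, and 0 under quantile normalization, after loess, at the 60th percentile floor, with no filter, with a gene's probe sets averaged and with no replicate block (no week block). Causes were not tested.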
